A study of Mus musculus with 12 samples.

Results

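The genes described here are 10 of the bone morphogenetic protein (BMP) pathway, of 21938 protein-coding genes in the GENCODE M21 annotation of GRCm38. They are the ligands Bmp2, Bmp4, Bmp7 and Bmp8a, the secreted antagonists Grem1, Nog and Chrd, and the target genes Id1, Id2 and Id3. For each gene, the called peaks of histone H3 marks that touched its body or the 5 kb on either side were taken from 8 peak lists of mouse small intestine. The 10 genes were chosen by the peaks that these 8 lists hold over them. Bmp8a was selected on a strong H3K27me3 peak called in crypts and not in villi. The peaks that chose the genes are therefore given as a description, without a test.

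Crypts, the pockets of the intestinal lining that hold the stem cells, were compared with villi, the projections covered by differentiated cells. ChIP-Rx, which is ChIP-seq with foreign chromatin added as a reference, was run on mouse small intestine with 5% of Drosophila S2 chromatin. Of 12 libraries, 10 came from antibodies against 5 modifications and 2 were inputs, which were not analysed here, and each compartment had 1 library per modification. Villi were scraped off and crypts were released with EDTA, and strain, genotype, age, sex and number of animals are not given in the sources used here. Both fractions came from tissue and were not sorted. Fewer cells that carry a mark and less of the mark per cell can therefore not be told apart. The authors reported that histone H3 tails are cleaved in villi. They found weaker villi signal for H3K4me1, H3K4me3 and H3K9me3, and retained H3K27me3 at repressed promoters. The part of this cleavage in the peaks described here was not tested. With 1 library per group, differences between crypts and villi cannot be set against replicates, and p-values are not given. The lists hold no read counts, so depth is unknown, and both the number and the width of called peaks can change with it. Their sizes were 16489 and 16977 peaks for H3K4me3, 54642 and 55341 for H3K4me1, 7611 and 13797 for H3K27me3, and 2126 and 2089 for H3K9me3, in crypts and villi respectively. The H3K9me2 lists hold 6 and 3 regions, 0 of them over the 10 genes.

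BMP ligands bind paired receptor kinases at the cell surface, which phosphorylate SMAD proteins that enter the nucleus with SMAD4 and switch on genes such as the Id genes. Gremlin, Noggin and Chordin bind the ligands outside the cell and keep them from the receptors. In the gut, BMP signalling is strongest towards the villus, and antagonists made by cells beneath the epithelium keep it low around the crypt base. H3K4me3 marks active promoters, H3K4me1 enhancers and the flanks of promoters, H3K27me3 genes under Polycomb repression, and H3K9me3 heterochromatin. A promoter that carries H3K4me3 and H3K27me3 together is often called bivalent.

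The labels were checked against promoter peaks of marker genes, a promoter being the stretch up to 1 kb before and after a start site of a protein-coding transcript. The 8 villi markers had H3K4me3 in both compartments, so these calls do not separate them. Of 6 crypts markers, 5 had H3K4me3 in crypts and 4 in villi. Of these, Lgr5 and Ascl2 carried H3K27me3 as well in both compartments. Olfm4, a stem-cell marker, had promoter H3K4me3 in crypts and not in villi. Lyz1, the lysozyme of Paneth cells, had neither H3K4me3 nor H3K27me3 at its promoter in either. The immune genes Ptprc, Cd3e and Cd8a had promoter H3K4me3 in villi and not in crypts, at Cd3e together with H3K27me3. Of 8 mesenchymal markers, 2 had H3K4me3 in crypts and 3 in villi, each together with H3K27me3, whereas Col1a2, Col3a1, Acta2 and Dcn had neither mark. The added mesenchymal gene was Col1a1, a collagen of fibroblasts. Of 3 endothelial markers Kdr, a receptor of blood vessel cells, had H3K4me3 in villi and not in crypts, with H3K27me3 in both. The part of these cells in the peaks described next was not tested.

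The promoter marks did not divide the genes by role alone, since Bmp2 had the state of the Id genes and Bmp4 that of Grem1 and Nog. H3K27me3 lay over the promoters of the 3 antagonists and of Bmp4 in both compartments, and over those of Bmp7 and Bmp8a in crypts. H3K4me3 without H3K27me3 lay over the promoters of Bmp2, Id1, Id2 and Id3 in both. Chrd carried both marks in crypts and in villi. In all, 7 of the 10 promoters had H3K4me3 in crypts and 7 in villi, beside 57.7% and 57.9% of all protein-coding genes. For H3K27me3 there were 6 in crypts and 4 in villi, beside 13.1% and 16.0%. Both marks met at 3 promoters in crypts and 1 in villi, beside 6.58% and 7.84% of all genes. H3K4me1 was called over 8 promoters in crypts and 6 in villi, beside 57.9% and 56.2%. Within the wider windows H3K4me3 touched 8 genes in each compartment (63.3% and 63.6% of all genes) and H3K4me1 9 in crypts and 8 in villi (69.2% and 68.9%). H3K27me3 touched 6 in each (17.9% and 23.0%). H3K9me3 peaks touched 0 of the 10 windows in crypts and 0 in villi, beside 3.91% and 3.12% of all genes, and 94.9% of all genes had none in either.

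**Figure D1:**
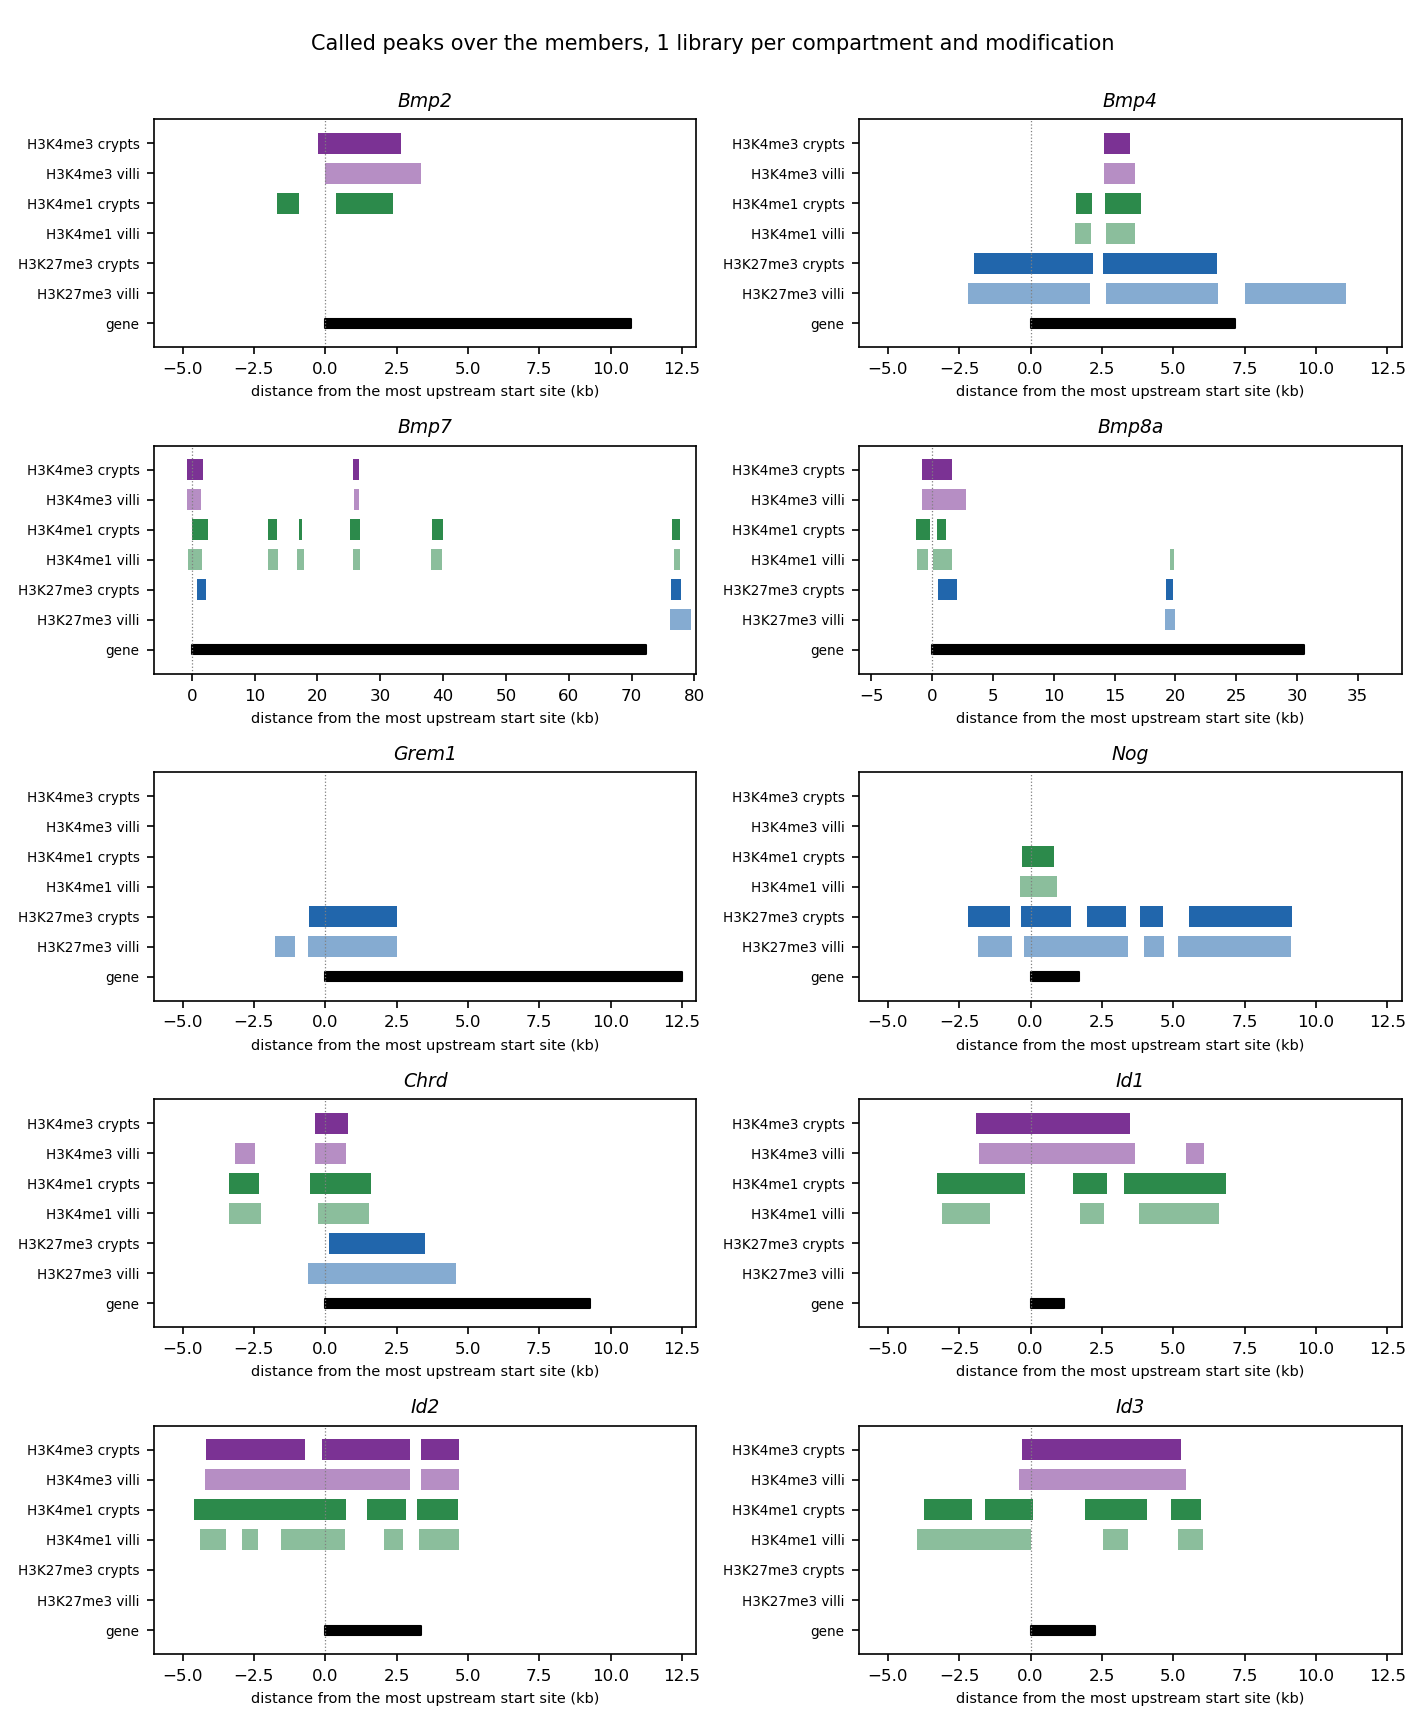
Called peaks over the 10 genes, 1 panel per gene, with distance from the most upstream start site in kb along the direction of transcription; each row is 1 list and the black bar is the gene. H3K27me3 bars lie over the starts of Bmp4, Grem1 and Nog, long H3K4me3 bars over Id1, Id2 and Id3, and the row of Bmp2 for H3K4me1 in villi is empty.

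Of the ligands, Bmp2 had the simplest pattern. Bmp2, a ligand made by differentiated cells of the gut lining among others, lies on chr2:133552159-133562885 on the plus strand. Its H3K4me3 peak was 2902 bp wide in crypts against 3359 bp in villi, over the start site and the first part of the gene in both. Scores are used here only as ranks, counted in percent from the top of the peak's own list, and these peaks ranked at 27.3% in crypts and 15.7% in villi. No H3K27me3 was called within 5 kb of the gene in either compartment. H3K4me1 was called in crypts on either side of the start, as peaks of 775 bp (rank 83.1%) and 1999 bp (rank 39.0%), and in villi not at all in the window. The nearest villi H3K4me1 peak was 32846 bp from the gene. An H3K4me1 call in crypts alone was made in 3.06% of all genes, and in 3.14% of the 12435 genes whose promoter had H3K4me3 in both compartments.

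Bmp4, the ligand best known from the mesenchyme beneath the gut epithelium, showed the opposite arrangement. It lies on chr14:46383520-46390669 on the minus strand, and no H3K4me3 was called over its promoter. A broad H3K27me3 peak covered the start site in both compartments, 4185 bp wide in crypts against 4300 bp in villi. The crypts peak ranked at 19.2% of its list, and the villi peak stood 151st of 13797, at 1.09%. A second H3K27me3 peak, of 3982 bp in crypts against 3913 bp in villi, covered the coding part. At the inner end of the promoter H3K27me3 peak, an H3K4me1 peak of 535 bp in crypts against 559 bp in villi overlapped it inside an intron. A narrow H3K4me3 peak, 908 bp in crypts against 1089 bp in villi, lay from 2586 and 2588 bp downstream of the start. It covered the start of the antisense transcript Gm15222, as did H3K4me1 and H3K27me3 peaks in both compartments. In villi a further H3K27me3 peak of 3538 bp, without a crypts counterpart, lay beyond the 3′ end at the predicted gene Gm15217. H3K27me3 covered 47.6% of the Bmp4 window in crypts and 68.5% in villi.

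Bmp7, a ligand with wide roles in epithelial organs, spans chr2:172868012-172940321 on the minus strand, and most of its peaks were found in both compartments. The promoter H3K4me3 peak was 2495 bp wide in crypts against 2185 bp in villi. A second H3K4me3 peak of 908 bp in crypts against 892 bp in villi lay in an intron, from 25674 and 25766 bp downstream of the start, inside an H3K4me1 peak in villi as in crypts. Of 6 H3K4me1 peaks in each compartment, 5 fell within the gene or its promoter, and all 6 met a peak of the other compartment. H3K27me3 differed. A 1396-bp peak from 853 to 2248 bp downstream of the start was called in crypts only. It was weak, with a rank of 95.7%, and stood 644th of the 733 crypts H3K27me3 peaks without a villi counterpart. With the promoter taken as 500 bp, or with the top 50% of each list, it was no longer counted. Beyond the 3′ end an H3K27me3 peak of 1564 bp in crypts met one of 3367 bp in villi, and both run past the 5 kb limit.

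Bmp8a, a ligand best known from germ cells, lies on chr4:123312645-123343252 on the minus strand and is the one of the 10 with the higher-ranked H3K27me3 call in crypts alone. That peak, chr4:123341235-123342743, was 1509 bp wide and reached from 509 to 2017 bp downstream of the first start site, over the first coding exon. It ranked 1435th of 7611 in its list, at 18.9%. Among the 733 crypts peaks without a villi counterpart, whose median width was 817 bp, it was number 3. The gene was chosen on this strong peak, so these ranks only describe it. The nearest villi H3K27me3 peak was 17167 bp away. H3K4me3 covered the promoter in both compartments, with a 2491-bp peak in crypts (rank 47.2%) and a 3608-bp peak in villi (rank 27.3%). The crypts H3K27me3 peak shared 1099 bp with the crypts H3K4me3 peak, and all its 1509 bp with the villi H3K4me3 peak. H3K4me1 at the same place was 763 bp wide in crypts against 1564 bp in villi. H3K27me3 over a promoter in crypts alone was called in 0.638% of all genes and in villi alone in 3.61%. Of the 1443 promoters with both marks in crypts, 111 (7.69%) had H3K4me3 without H3K27me3 in villi, Bmp7 and Bmp8a among them. A further H3K27me3 peak in an intron of Bmp8a was called in both compartments, with 645 bp and rank 64.6% in crypts and 798 bp and rank 15.0% in villi. It covered the start of Oxct2a, a single-exon gene of the germ line that lies inside Bmp8a, and in villi a 350-bp H3K4me1 peak, the weakest of the villi H3K4me1 peaks over the 10 genes (rank 99.1%), covered it too.

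The closest relative of Bmp8a is Bmp8b, whose gene lies 181 kb away on the same chromosome on the plus strand. The aligner reported a single position per read, so the sequences of the copies were compared. The first coding exons are 325 bases each, and 260 of these bases (80.0%) are identical, without gaps. Of the crypts-only peak, 995 of 1509 bases could be aligned to Bmp8b, with an identity of 79.4%. The intronic peak over Oxct2a aligned there over all its bases, at an identity of 89.2% for its 645 bp in crypts and 91.2% for its 798 bp in villi. The Bmp8b stretch of 1020 bp that matched the crypts-only peak was covered by H3K27me3 over its whole length in crypts and in villi. At Bmp8b the promoter H3K27me3 peak was 1489 bp wide in crypts against 3171 bp in villi, and H3K4me3 was called over 942 bp and 1546 bp. Over aligned coding sequence, then, H3K27me3 was called at both genes in crypts and at Bmp8b alone in villi. The first 300 coding bases of each gene are printed to show how many differences tell the copies apart. They are read 5′ to 3′ on the coding strand from GRCm38.p6, with the 61 bases that differ in capitals. The Bmp8a stretch is chr4:123342409-123342708 on the minus strand and the Bmp8b stretch chr4:123105351-123105650 on the plus strand.
Bmp8a: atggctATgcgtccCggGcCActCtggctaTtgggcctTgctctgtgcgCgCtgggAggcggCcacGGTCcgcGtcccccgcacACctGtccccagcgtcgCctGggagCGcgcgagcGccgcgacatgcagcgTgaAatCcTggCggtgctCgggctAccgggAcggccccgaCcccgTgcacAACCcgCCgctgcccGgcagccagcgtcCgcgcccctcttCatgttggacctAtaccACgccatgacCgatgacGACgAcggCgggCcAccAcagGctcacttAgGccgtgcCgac
Bmp8b: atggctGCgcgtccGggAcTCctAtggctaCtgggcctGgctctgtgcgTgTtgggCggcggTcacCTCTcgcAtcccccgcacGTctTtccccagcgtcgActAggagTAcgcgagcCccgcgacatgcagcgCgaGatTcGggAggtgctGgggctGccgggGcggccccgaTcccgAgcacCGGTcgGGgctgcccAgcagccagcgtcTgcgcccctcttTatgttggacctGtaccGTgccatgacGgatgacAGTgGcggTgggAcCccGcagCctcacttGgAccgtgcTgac
All 300 bases of Bmp8a lay under H3K27me3 in crypts and 0 in villi, all 300 of Bmp8b lay under it in both, and H3K4me3 covered all 300 of each gene in both compartments. Whether reads of one copy were placed on the other was not tested.

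The antagonists had H3K27me3 over their promoters in both compartments and, at Grem1 and Nog, no H3K4me3. Grem1 encodes Gremlin 1, which stromal cells next to the crypts are known to make, and lies on chr2:113746164-113758646 on the minus strand. H3K27me3 was the only mark called in its window. The peak over the start was 3088 bp wide in crypts against 3108 bp in villi and had nearly the same edges, running from -559 to 2528 bp around the start in crypts, and in villi from -607 to 2500 bp. Its rank was 45.2% in crypts and 6.52% in villi. Villi held a second, 721-bp peak upstream of it, from -1777 to -1057 bp, that crypts lacked. The 250 bases before the start, chr2:113758647-113758896 on the minus strand, lay under H3K27me3 in both compartments. They are printed with each CpG in capitals because CpG-rich promoters are where Polycomb marks are usually found.
Grem1: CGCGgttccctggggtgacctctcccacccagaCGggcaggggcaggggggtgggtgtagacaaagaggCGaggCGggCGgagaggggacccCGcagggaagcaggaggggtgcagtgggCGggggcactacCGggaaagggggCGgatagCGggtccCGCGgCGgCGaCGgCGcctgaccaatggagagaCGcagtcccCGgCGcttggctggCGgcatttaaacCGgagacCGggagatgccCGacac
They hold 24 CpG and 71.6% G and C.

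Nog encodes Noggin, which binds BMP ligands with high affinity, and is a single-exon gene on chr11:89300638-89302332 on the minus strand. H3K27me3 peaks filled more of its window than of any other of the 10 genes in crypts, 5 peaks over 56.2% of its length, and covered 60.6% with 4 peaks in villi, where only Bmp4 had more. Around the gene, crypts peaks of 1378 bp and 1780 bp met 1 villi peak of 3670 bp, which ranked at 6.13%. The peak farthest downstream, of 3616 bp in crypts against 3951 bp in villi, ranked at 94.8% and 12.5%. An H3K4me1 peak lay over the start site, 1116 bp wide in crypts against 1282 bp in villi, where it overlapped H3K27me3 and no H3K4me3 was called.

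Chrd, the gene of Chordin, was the only one of the 10 with H3K4me3 and H3K27me3 over its promoter in both compartments. It lies on chr16:20733127-20742384 on the plus strand. Its H3K27me3 peak was 3382 bp wide in crypts, where it stood 123rd of its list (1.62%), the highest rank of any crypts H3K27me3 peak over the 10 genes. In villi the peak was 5186 bp wide (rank 9.97%) and extended past both edges of the crypts peak. The peak also covered the start of Thpo, the gene of thrombopoietin, which overlaps Chrd on the other strand, in both compartments. H3K4me3 over the start was narrow, 1159 bp in crypts against 1100 bp in villi. Upstream, from -3177 to -2477 bp, villi had a weak H3K4me3 peak of 701 bp (rank 94.2%) where both compartments had H3K4me1.

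**Figure D2:**
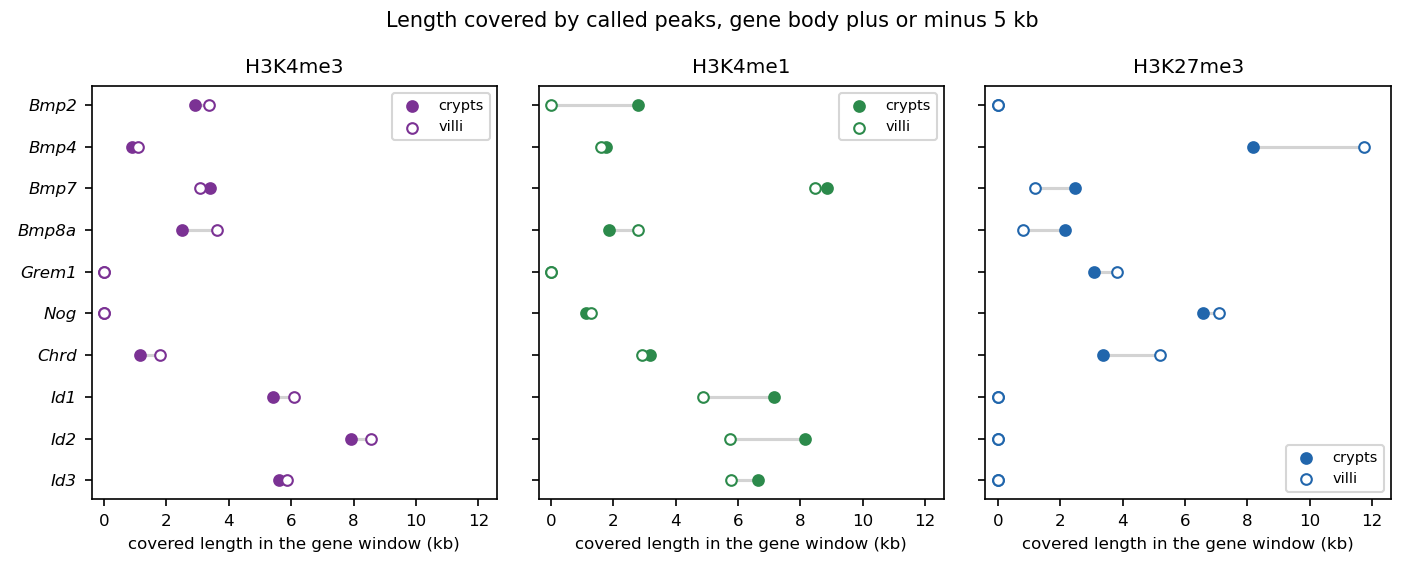
Length in kb covered by called peaks in each gene's window (gene body and 5 kb on either side), 1 panel per mark, with filled points for crypts and open points for villi, 1 library each. For H3K4me1 the open point lies to the left at Bmp2, Bmp4, Bmp7, Chrd and the 3 Id genes, and for H3K27me3 Bmp4 has the longest cover, 8167 bp in crypts against 11751 bp in villi.

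The Id genes encode small helix-loop-helix proteins that bind other transcription factors of this class and keep them from DNA. All 3 had wide H3K4me3 peaks over the start and most or all of the gene, and no H3K27me3 within 5 kb in either compartment. Id3, on chr4:136143497-136145755 on the plus strand, had the peak that ranked highest. It was 5597 bp wide in crypts, 10th of 16489 by score (0.0606%), and 5858 bp in villi, 179th of 16977 (1.05%). By width it stood at 1.12% and 1.38% of these lists. Id1, on chr2:152736251-152737410 on the plus strand, is 1160 bp long, and its H3K4me3 peak was 5401 bp wide in crypts against 5457 bp in villi, with score ranks of 3.86% and 2.92%. A second, weak H3K4me3 peak of 636 bp (rank 98.4%) was called in villi only, from 5454 bp downstream of the start. Id2, on chr12:25093799-25097140 on the minus strand, had 2 crypts peaks of 3102 bp and 3487 bp where villi had 1 of 7198 bp. By width the villi peak stood 99th in its list (0.583%). Score ranks were lower than at Id1 and Id3, at 24.1% and 52.2% in crypts and 12.1% in villi. A further Id2 peak at the 3′ end was 1334 bp wide in crypts (rank 76.6%) against 1346 bp in villi (rank 93.7%). The H3K4me3 cover of the compartments was alike at all 3 genes: the base pairs covered in both, divided by those covered in either, came to 0.858 for Id1, 0.927 for Id2 and 0.955 for Id3.

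H3K4me1 peaks lay beside these H3K4me3 peaks and partly within them, and covered less sequence in villi at all 3 genes. The same was so at 6 of the 8 genes with H3K4me1 in both compartments, Bmp4, Bmp7 and Chrd being the others, beside 47.6% of all such genes. It covered 7145 bp of the Id1 window in crypts and 4880 bp in villi, 8136 bp and 5752 bp of the Id2 window, and 6638 bp and 5771 bp of the Id3 window. On the log2 scale, villi over crypts, these differences in cover were -0.55, -0.50 and -0.20. Over the 14515 genes with H3K4me1 in both compartments the median was 0.02 and the middle 50% lay between -0.27 and 0.31. Id1 and Id2 lay below that range and Id3 within it. Any part of H3 tail cleavage in villi was not tested. Upstream of Id1 a 3068-bp peak in crypts met one of 1669 bp in villi that ended 1435 bp before the start, and Id1 thereby had promoter H3K4me1 in crypts and not in villi. Upstream of Id2 a 5325-bp peak in crypts met 3 villi peaks of 2233 bp, 565 bp and 916 bp. At Id3 the order was mixed, as upstream peaks of 1694 bp and 1701 bp in crypts met a single villi peak of 4001 bp, whereas downstream a 2196-bp peak met one of 878 bp. The 250 bases before the GENCODE start of Id3, chr4:136143247-136143496 on the plus strand, are printed in the same way.
Id3: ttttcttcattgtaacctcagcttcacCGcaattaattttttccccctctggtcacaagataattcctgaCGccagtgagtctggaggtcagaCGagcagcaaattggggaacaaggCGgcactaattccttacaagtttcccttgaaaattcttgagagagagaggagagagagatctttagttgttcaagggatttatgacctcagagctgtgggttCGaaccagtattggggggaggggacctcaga
They hold 5 CpG and 46.4% G and C, under H3K4me3 and H3K4me1 peaks. The RefSeq promoter of Id3, which lies farther downstream without overlapping these bases, holds 19 CpG in 300 bases. The 250-base stretch before the first start of Bmp8a is chr4:123343253-123343502 on the minus strand. It lay under H3K4me3 in both compartments and outside the H3K27me3 peak of the gene.
Bmp8a: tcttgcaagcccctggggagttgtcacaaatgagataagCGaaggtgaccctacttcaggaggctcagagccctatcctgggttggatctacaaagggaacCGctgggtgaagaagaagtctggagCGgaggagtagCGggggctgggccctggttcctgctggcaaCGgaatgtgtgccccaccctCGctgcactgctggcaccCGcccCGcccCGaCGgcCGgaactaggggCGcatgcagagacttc
It holds 12 CpG and 62.0% G and C.

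RefSeq promoters of GRCm38.p6, each from 250 bases before to 50 bases after a start, were matched by symbol for 6 of the 10 genes. Bmp2, Bmp7, Nog and Id1 were not matched. For Id2 and Id3 the RefSeq start lies downstream of the first GENCODE start. CpG numbered 12 in Bmp4, 15 in Bmp8a, 28 in Grem1, 34 in Chrd, 21 in Id2 and 19 in Id3. The median over 32851 promoters was 7. Bmp4, with promoter H3K27me3, had fewer CpG than Id2 and Id3, which lacked the mark. The letters GGCGCC, a GC-rich element bound by SMAD proteins that reads the same on both strands, occurred once each in Grem1, Chrd and Id2, and in 11.9% of all promoters. The palindrome GTCTAGAC, also bound by SMAD proteins, was in 0 of the 6 and in 0.213% of all. These are matches of letters in a 300-base window and no more.

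Across the 10 genes, most peaks had a counterpart. A peak was called shared where it overlapped 1 bp or more of a peak in the other list, and the 95% Wilson intervals cover counting error only. All 11 H3K4me3 peaks in crypts (100%, 74.1 to 100%) met a villi peak, beside 93.3% of the whole list, and 10 of 12 in villi (83.3%, 55.2 to 95.3%) met a crypts peak, beside 90.6%. For H3K4me1 the numbers were 23 of 25 in crypts (92.0%, 75.0 to 97.8%; whole list 81.7%) and 24 of 25 in villi (96.0%, 80.5 to 99.3%; whole list 82.1%). For H3K27me3 they were 11 of 13 in crypts (84.6%, 57.8 to 95.7%; whole list 90.4%) and 10 of 12 in villi (83.3%, 55.2 to 95.3%; whole list 44.4%). Neighbouring peaks of a gene are not independent of each other. The peaks without a counterpart lay at Bmp2 for H3K4me1 in crypts, at Bmp8a for H3K4me1 in villi, at Chrd and Id1 for H3K4me3 in villi, and, for H3K27me3, at Bmp7 and Bmp8a in crypts and at Bmp4 and Grem1 in villi.

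Where 1 crypts peak met 1 villi peak, widths were set side by side. Of 9 such H3K27me3 pairs over the 10 genes, 6 were wider in villi, with a median log2 ratio, villi over crypts, of 0.04, whereas over all 4736 pairs the median was 0.32 and 79.2% were wider in villi. The largest log2 ratio within these genes was that of the peak beyond the 3′ end of Bmp7, at 1.11, and Chrd followed at 0.62. Of 20 H3K4me1 pairs 6 were wider in villi, with a median of -0.25 (all 38608 pairs -0.01, with 49.2% wider). Of 9 H3K4me3 pairs 6 were wider in villi, with a median of 0.01 (all 14941 pairs -0.03, with 42.8% wider). H3K27me3 cover in the windows was greater in villi at 4 of the 6 genes that had it and smaller at Bmp7 and Bmp8a, beside 85.5% and 14.0% of the 3756 genes with the mark in both. At Bmp8a, chosen for its strong crypts-only peak, the log2 difference was -1.43 and 0.479% of these genes lay lower, which restates that choice. At Bmp7 it was -1.07, but the direction came from the window's edge, which cuts the downstream peaks. With whole peaks, crypts had 1564 bp and 1396 bp and villi 3367 bp, which is more in villi. H3K4me3 cover was greater in villi at 7 of the 8 genes that had it, Bmp7 being the exception. The median log2 difference was 0.19, beside a median of -0.04 over the 13633 genes with the mark in both. Of those genes 41.9% had more cover in villi. At Chrd the direction came from a weak upstream villi peak (rank 94.2%). The peak over its start was 1159 bp wide in crypts against 1100 bp in villi. At Bmp4 the cover was that of the peak over the Gm15222 start.

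**Figure D3:**
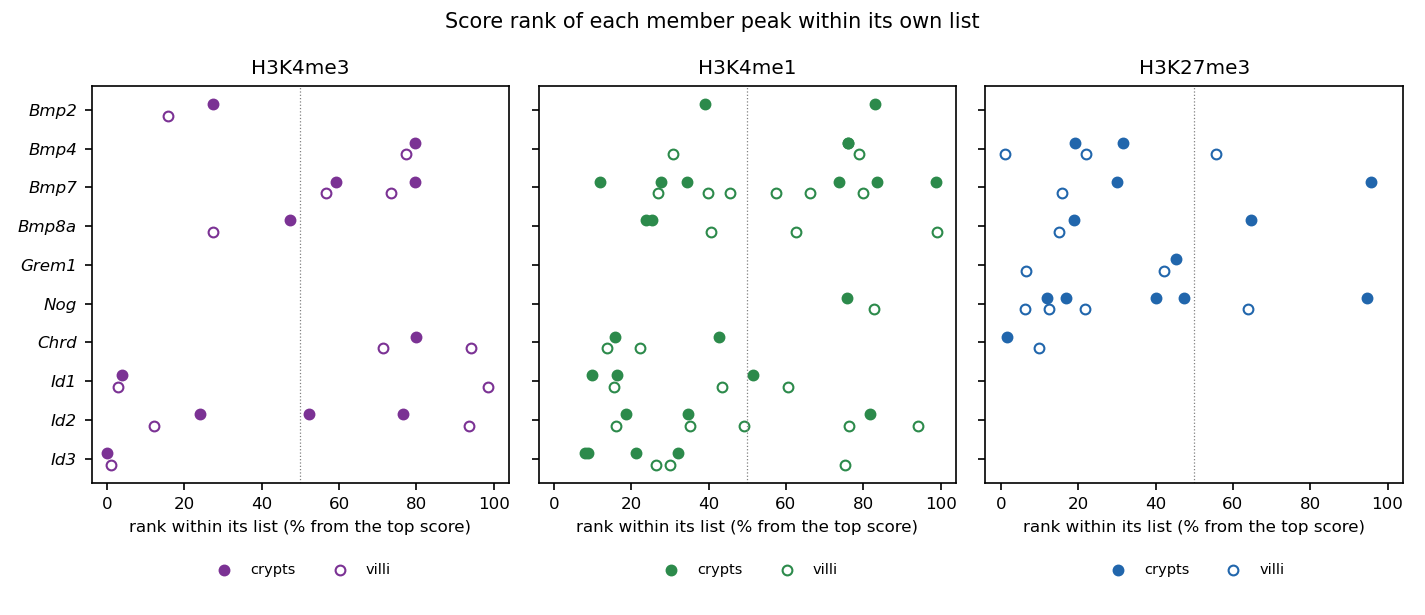
Score rank of each peak over the 10 genes within its own list, in percent from the top, 1 panel per mark, with filled points for crypts and open points for villi; the dotted line is the middle of the list. For H3K27me3, 10 of 13 crypts points and 10 of 12 villi points lie left of the line, with 1 and 4 of them in the top 10%, and the Id genes have no point.

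The rest of the pathway was read from a list of 47 further genes, of which 46 were matched by symbol. Their promoters had H3K4me3 in 27 genes in crypts and 27 in villi, and H3K27me3 in 16 and 18. Both marks met in 10 and 11. Over all protein-coding genes the shares were 57.7% and 57.9% for H3K4me3, 13.1% and 16.0% for H3K27me3, and 6.58% and 7.84% for both marks, and the counts by role that follow stand beside these same shares. Of 10 further ligands, 4 had promoter H3K27me3 in both compartments, and it was longest at Gdf6, a growth factor of joints and the eye, with 14972 bp of the window covered in crypts and 14525 bp in villi. Of 13 further antagonists, 4 had promoter H3K27me3 in crypts and 5 in villi, and 7 and 6 had neither mark. Of 10 receptors and co-receptors 7 had H3K4me3 in both compartments and 3 had H3K27me3, the longest at Rgma, a co-receptor, with 9697 bp in crypts against 18592 bp in villi. All 6 signal transducers and their regulators had promoter H3K4me3 in both compartments. Of 7 further targets, 6 had H3K4me3 in crypts and 7 in villi, and 5 had H3K27me3 in each. Id4, the remaining Id gene, carried both marks in both compartments, with 3586 bp and 5045 bp of H3K27me3, unlike Id1, Id2 and Id3.

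The promoter state differed between compartments in 4 of these 46 genes and in 2 of the 10, Bmp7 and Bmp8a, beside 6.39% of all protein-coding genes. Bmp8a was selected on this difference, and nothing is read from these counts. Fstl1, a secreted glycoprotein that binds BMP ligands, had both marks in crypts and H3K27me3 alone in villi, where its H3K27me3 cover was 12589 bp against 3174 bp. Sost, the gene of sclerostin, had neither mark at its promoter in crypts and H3K27me3 in villi, but its window held H3K27me3 in both, over 4530 bp in crypts against 6068 bp in villi. Smad9, a signal transducer of BMP receptors, had H3K4me3 in both and 2332 bp of H3K27me3 in villi only. Msx2, a homeobox target of BMP, had H3K27me3 in both compartments and H3K4me3 in villi only. Promoter H3K27me3 was called in crypts alone in 0 of these 46 genes, and in 2 of the 10, Bmp8a having been chosen for it.

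**Figure D4:**
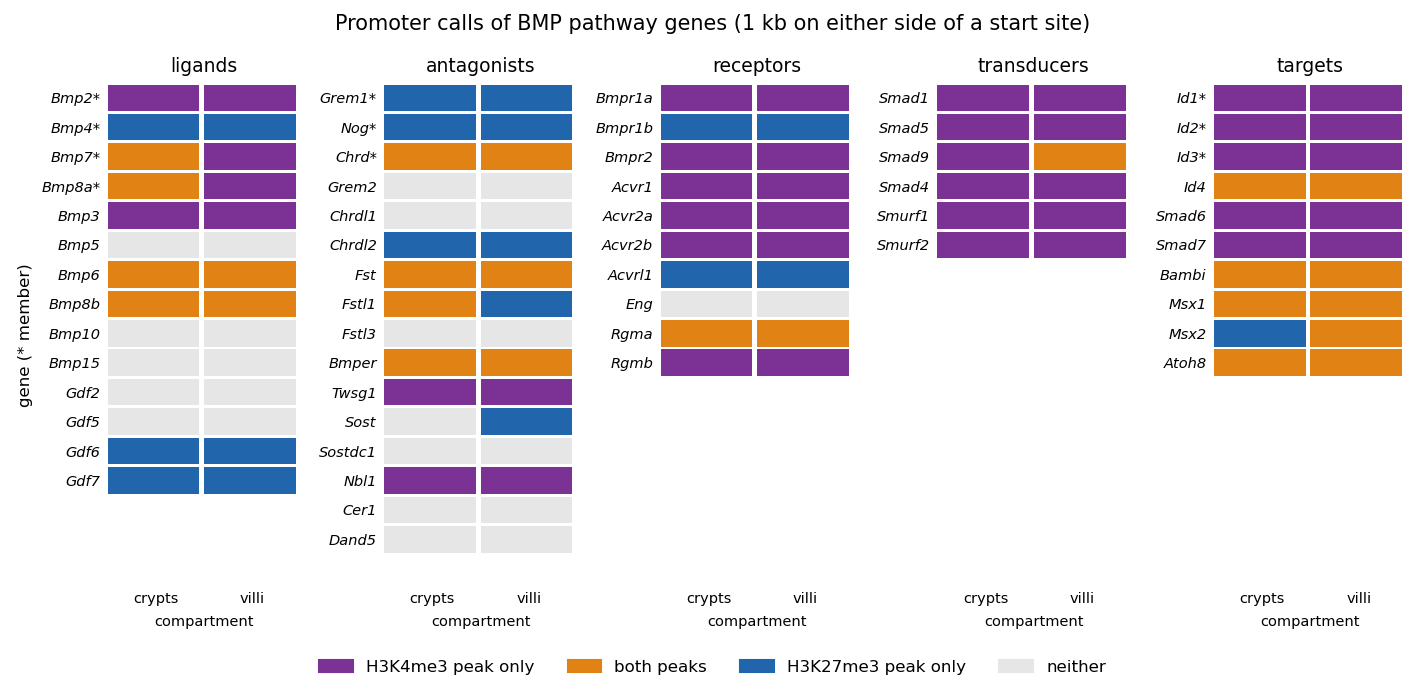
Promoter calls of the 10 genes (marked with an asterisk) and 46 further pathway genes, by role, in crypts and villi; colour gives whether an H3K4me3 peak, an H3K27me3 peak, both or neither touched the promoter (1 kb before and after a start site). All 6 transducers carry H3K4me3, and the state changes between the columns at Bmp7, Bmp8a, Fstl1, Sost, Smad9 and Msx2.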

How the data were processed

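ChIP-Rx libraries of crypts and villi were made by the authors, who mapped them to mm10 and dm6 with Bowtie 1.1.2, set to report 1 best position per read with no filter for unique positions stated. Duplicates and reads that fitted both genomes were dropped by them, and MACS2 2.1.1 was run per library at a p-value of 1e-10. The deposited lists lack a header. Their score was read as a −log10 p-value of the authors' caller, a −log10 q-value not being excluded. It does not use the spike-in and served only to rank peaks within a list. The methods and the labels give different amounts of chromatin and antibody and different beads, and the methods name no H3K9me2 calls.

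The 10 genes, the pathway and marker lists and the rule for named genes (all 10; further pathway genes with a promoter call that differed or the longest H3K27me3 cover of their role; markers that differed; genes whose start lay under a peak) were chosen with earlier results of these data known. Peaks of 8 lists were assigned to GENCODE M21 genes of GRCm38, which mm10 names, with 5 kb windows, promoters of 1 kb, shared peaks at 1 bp of overlap and 95% Wilson intervals (Python 3.11.15, NumPy 2.4.6, Matplotlib 3.10.9). Sequences were read with samtools 1.23.1. The Bmp8a peaks were aligned to the Bmp8b locus with blastn 2.17.0, and the first coding exons end to end with the Biopython pairwise aligner. The overlap code was tested on simulated data. For 1 marker gene the result is not reported here. Depth is unknown, and no test was made with 1 library per group. Alternatives covered the window, the promoter, the overlap rule, merging and the top 50% of each list by score.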

Additional observations from a re-analysis of the deposited data

How the results depend on the processing

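Of 158 values recomputed under another setting, 139 stayed within the limits set for them, which were 1.5 times the reported value for a count and its own Wilson interval for a share, and 19 did not. These limits are wide, and small differences between compartments turned within them: the shared share of H3K27me3 was 61.5% in crypts and 66.7% in villi with a reciprocal overlap of 50%, and H3K4me3 peaks numbered 11 and 10 with a 1 kb window. With the top 50% of each list by score, 5 genes had H3K4me3 in crypts and 5 in villi, and the peaks over the 10 genes numbered 5 and 5 for H3K4me3 and 16 and 14 for H3K4me1. With the gene body alone, peaks numbered 16 and 15 for H3K4me1 and 8 and 6 for H3K27me3, and merging peaks under 1 kb apart also gave 8 and 6 for H3K27me3. The shared share of villi H3K4me3 peaks was 100% with the top 50% of both lists and 100% against the whole other list. That of H3K4me1 was 64.0% in crypts and 64.0% in villi with a reciprocal overlap of 50%, 75.0% in crypts with the top 50% of both lists, and 100% in villi with the top 50% against the whole other list. Merging gave 75.0% for crypts and 100% for villi H3K27me3. Fewer peaks enter the filtered and merged counts by construction. For H3K9me3 no share could be given, since no peak touched the 10 genes. Its counts of 0 are among the 139, and under narrower settings they could not change. The crypts-only promoter H3K27me3 call of Bmp8a was made under all 5 promoter settings, that of Bmp7 under 3. Bmp8a was chosen on a strong call of this kind, so its count is no separate support. No paired analysis was possible because each compartment had 1 library per modification and no test was made. The peaks closest to the 5 kb limit lay 4418 bp from the gene inside it, at Bmp7, and 5179 bp from the gene outside it, at Id1, both H3K4me1 in villi. The lists hold no read counts, so no value could be weighed by depth.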

Other observations

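Beyond the windows, from 5 to 100 kb on either side of the genes, the surroundings differed in the marks they held. H3K4me1 peaks there numbered 80 in crypts, of which 70 met a villi peak, and 81 in villi, of which 68 met a crypts peak, beside 81.7% and 82.1% shared over the whole lists. They were most numerous around Id1, with 16 in crypts and 17 in villi, and around Id3, with 14 and 16. Around Nog, the antagonist with most of its window under H3K27me3, there was no H3K4me1 or H3K4me3 peak in either compartment. Grem1 had 5 H3K4me1 peaks in crypts and 6 in villi, the nearest 62274 bp from the gene in crypts and 15554 bp in villi. Bmp2, without H3K4me1 in its villi window, had 9 such peaks in crypts and 7 in villi at this distance, and all 7 of villi met a crypts peak.

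H3K27me3 peaks at the same distance numbered 6 in crypts, all of them shared, and 16 in villi, 7 of them shared. Over the whole lists, of 7611 peaks in crypts and 13797 in villi, 90.4% and 44.4% were shared. Around Bmp8a there were 1 in crypts and 5 in villi. Bmp7 had 1 in crypts and 3 in villi. H3K4me3 peaks numbered 24 in each compartment, 22 of them shared, beside 93.3% and 90.6% of the whole lists. H3K9me3 was called only around Chrd, with 2 peaks in crypts and 1 in villi.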
